A study of Mus musculus with 56 samples.

Results

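The comparison was made between 4 mice on day time-restricted feeding (DRF) sampled at zeitgeber time 4 (ZT4) and 4 mice on night time-restricted feeding (NRF) sampled at ZT16, out of 56 mice in the series. Lights came on at ZT0 and went off at ZT12. DRF gave access to food from ZT0 to ZT12, NRF gave access from ZT12 until lights came on again, and both regimens lasted 7 days. Both groups were therefore 4 h into their feeding window, the DRF mice in the light and the NRF mice in the dark, 12 h apart in clock time. All were female C57BL/6J mice of 9 weeks, kept in a 12-h light and 12-h dark cycle, with no genetic change and no drug, and poly(A) RNA of the dissected anterior hypothalamus was sequenced from each mouse. The members were defined by regimen and time point, and no mouse was picked or left out by its expression values. The choice of these groups was made with earlier results of these data known, so it was not blind to the data. Light, clock time and regimen all differ between these groups and cannot be told apart here, and the amount eaten was not among the values analysed.

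The anterior hypothalamus holds the suprachiasmatic nucleus (SCN), the light-entrained pacemaker of the body, and the paraventricular nucleus, whose neurons drive the daily release of glucocorticoids from the adrenal gland. In a cell's clock, ARNTL and CLOCK activate the Per and Cry genes, and the PER and CRY proteins repress ARNTL and CLOCK in turn. In nocturnal rodents on free food, circulating glucocorticoids rise towards the onset of darkness, and a daytime meal is known to move or split this rise. Brain astrocytes and blood vessels carry glucocorticoid receptors, and genes such as Tsc22d3 and Fkbp5 are their standard transcriptional readouts. Hormone levels were not measured in these mice.

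Levels are given in CPM (reads of a gene scaled to a common library size), recovered from the deposited values, and differences are DRF ZT4 minus NRF ZT16 on the scale of log2(CPM + 1) with their standard error (SE), so a negative value is lower in the light. This scale understates the change of transcripts below a few CPM. The normalized library size was 30432778 to 30845949 reads in the DRF ZT4 mice and 30276055 to 30828735 in the NRF ZT16 mice. The correlation of log2(CPM + 1) between mice of the same group was 0.9973 to 0.9982 in DRF ZT4 and 0.9961 to 0.998 in NRF ZT16. All 7 anterior hypothalamic markers were measured in every group compared, and those of the pituitary summed to at most 0.624 CPM in DRF ZT4 and 7.98 CPM in NRF ZT16. Some marker sums differed between the groups, and whether the dissections held the same tissue was not tested. The 7 anterior hypothalamic markers summed to 630 to 756 CPM in DRF ZT4 and 458 to 534 CPM in NRF ZT16, the 4 thalamic markers to 51.8 to 142 against 114 to 230 CPM, and the 7 oligodendrocyte markers to 5767 to 6906 against 6906 to 8408 CPM. None of these markers passed the test on its own, and their part in the results was not tested. In bulk tissue, fewer cells of a type and less RNA per cell cannot be told apart.

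A small set of transcripts differed between feeding in the light and feeding in the dark, and most of them were lower in the light. Of 16090 transcripts tested with limma, 78 passed an adjusted p-value of 0.05, which is 0.485% of those tested, and 1371 had an unadjusted p-value under 0.05. Of the 78, 52 were lower in DRF ZT4 (0.323% of those tested) and 26 were higher (0.162%). The differences ran from 0.20 to 2.22 in size, with a median of -0.44 among the lower and 0.32 among the higher transcripts. A difference of more than 1 was reached by 3 lower transcripts and 1 higher transcript. Over all transcripts tested the median difference was 0.00078, and 50.5% were above 0. The 4 mice of one group did not overlap the 4 of the other in 76 of the 78 transcripts. That count largely follows from choosing the 78 by p-value in these same mice, and it adds no support. Groups without overlap were found in 6.65% of all transcripts tested. The transcripts named below for the largest differences had to have such groups, so the lack of overlap adds no support for them either. When each of the 8 mice was left out in turn, between 34 and 68 transcripts passed, the fewest without NRF ZT16 replicate 2 and 50 without DRF ZT4 replicate 1. Without any of these mice, 28 of the 78 kept their call, 24 of them lower and 4 higher. With each library weighted by its own spread 354 passed, and all 78 were among them. In the fit of the 8 mice alone 99 passed, with 58 of the 78 among them. On the deposited values as they stand 68 passed, again with 58 of the 78.

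**Figure D1:**
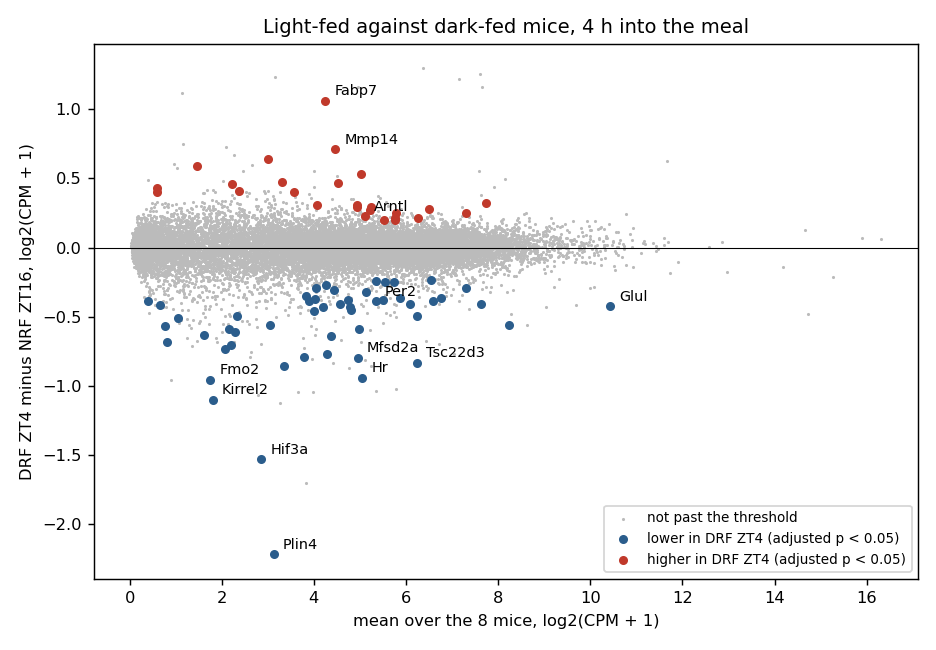
Difference between DRF ZT4 and NRF ZT16 (vertical axis, log2(CPM + 1)) against the mean level over the 8 mice (horizontal axis, log2(CPM + 1)), 1 point per transcript. The 52 transcripts lower and the 26 higher in DRF ZT4 (coloured, adjusted p under 0.05) spread over the whole range of levels, with Plin4 at -2.22 and Fabp7 at 1.06 as the largest in each direction.

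The list with the most called members was that of glucocorticoid targets. Of its 18 members tested, 6 were lower in DRF ZT4 (0.323% of all transcripts tested were), none was higher, and 17 had a difference below 0, with a median of -0.38. The list was drawn up with earlier results of these data known, so its share of calls is no independent support. Plin4, a coat protein of lipid droplets, measured 3.12, 2.79, 2.77 and 3.60 CPM in the DRF mice and 21.3, 20.8, 14.5 and 15.8 CPM in the NRF mice. Every NRF mouse was thus above every DRF mouse, and the ratio of the group means was 5.90 (difference -2.22, SE 0.30, adjusted p = 6.4e-06). Hif3a, a member of the hypoxia-inducible factor family, measured 3.06, 3.60, 3.26 and 3.20 CPM against 10.5, 10.6, 11.3 and 13.1 CPM, a ratio of 3.47 (difference -1.53, SE 0.20, adjusted p = 6.08e-06). Tsc22d3, the glucocorticoid-induced leucine zipper, measured 52.2, 53.9, 58.8 and 58.7 CPM against 93.6, 115, 96.0 and 97.5 CPM. Its groups lay far apart relative to the spread within each, and it had the smallest adjusted p-value of the list (difference -0.83, SE 0.092, adjusted p = 1.39e-07). Klf15, a transcription factor induced in fasting and by glucocorticoids, measured 28.3 to 33.2 against 36.5 to 39.1 CPM (difference -0.32, SE 0.062, adjusted p = 0.00321). Fkbp5, a co-chaperone that restrains the glucocorticoid receptor, measured 22.6, 22.5, 23.7 and 22.5 CPM against 32.0, 38.0, 26.0 and 29.5 CPM, so that its spread lay almost wholly in the NRF mice (difference -0.43, SE 0.098, adjusted p = 0.018). Nfkbia, the inhibitor of NF-kappa-B, measured 12.5 to 13.0 against 15.7 to 18.8 CPM (difference -0.46, SE 0.11, adjusted p = 0.0266). Klf9 lay just outside the threshold at -0.40 with an adjusted p of 0.0504, and Sgk1, a kinase that controls ion channels, had a difference of -1.03 with an adjusted p of 0.0824, at 26.2 to 29.3 against 36.0 to 73.3 CPM. The metallothionein Mt1 was at 0.01 (adjusted p = 0.994).

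The number of these targets called lower was 4 to 7 when each mouse was left out in turn. Fkbp5 lost its call without DRF ZT4 replicate 1, 2 or 4 or NRF ZT16 replicate 1 or 2 (adjusted p = 0.0638 to 0.202), and Nfkbia without any mouse but NRF ZT16 replicate 1 (0.0622 to 0.118).

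Other transcripts lower in DRF ZT4 act at the blood vessel and in thyroid hormone handling. Mfsd2a, which carries lysophospholipids with omega-3 fatty acids across the blood-brain barrier, measured 23.3, 22.5, 21 and 23.5 CPM in DRF ZT4 against 46.1, 42.6, 34.1 and 37.7 CPM in NRF ZT16 (difference -0.79, SE 0.11, adjusted p = 6.4e-06). Ly6c1, a surface protein of brain endothelium, measured 23.2 to 27.2 against 36.7 to 38.7 CPM (difference -0.59, SE 0.084, adjusted p = 1.93e-05), and part of its reads could not be resolved into whole counts, as in genes that share reads with a near copy. These were 2 of 15 endothelial and barrier genes tested, and the others, such as the tight-junction gene Cldn5 at 0.35 (adjusted p = 0.157) and Pecam1 at 0.05 (adjusted p = 0.904), did not pass. Over the whole list of 15, 7 were above 0 and 8 below. Hr, a corepressor that is itself induced by thyroid hormone, measured 22.1, 22.5, 23.6 and 23.7 CPM against 53.1, 45.1, 38.6 and 44.1 CPM (difference -0.94, SE 0.15, adjusted p = 8.58e-05). The DRF mice lay close together and the NRF mice were spread widely above them. Dio2, the deiodinase that turns thyroxine into active triiodothyronine, measured 5.35 to 7.75 against 11.4 to 15.9 CPM (difference -0.86, SE 0.21, adjusted p = 0.0482), and it lost its call without any 1 of the 8 mice (0.0653 to 0.23). The other 8 of 10 genes of this list did not pass, among them the receptors Thra at 0.08 and Thrb at -0.07. In this list 4 of the 10 were above 0, the largest of them at 0.73.

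Genes of substrate use were represented by single members rather than by whole pathways. Slc2a1, the glucose transporter of the blood-brain barrier, measured 94.3, 102, 92.3 and 90.3 CPM against 122, 125, 119 and 124 CPM (difference -0.37, SE 0.064, adjusted p = 0.000722). Gpd1, which links glycolysis to glycerol and lipid synthesis, measured 12.4 to 15.1 against 22.8 to 25.5 CPM (difference -0.77, SE 0.16, adjusted p = 0.00929), a call that ended without DRF ZT4 replicate 1 (0.0515). They were 2 of 21 genes of glucose transport and glycolysis, whose median was 0.01, and the enzymes of the pathway itself lay between -0.09 (Pgk1) and 0.08 (Pfkfb3). Among 23 genes of amino acid degradation, Gpt2, the mitochondrial alanine aminotransferase, measured 49.8 to 50.7 against 59.3 to 69.1 CPM (difference -0.36, adjusted p = 0.00223). Prodh, which begins the breakdown of proline, measured 18 to 21.6 against 24.8 to 29.4 CPM (difference -0.41, adjusted p = 0.00929), and it lost its call without DRF ZT4 replicate 3 or NRF ZT16 replicate 1 (0.0654 and 0.0676). Xdh, the xanthine dehydrogenase of purine breakdown and a member of no list, measured 2.41 to 2.72 against 4.1 to 5.71 CPM (difference -0.70, adjusted p = 0.00724).

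Astrocyte transcripts moved in both directions. Of 15 tested, Fabp7 was higher in DRF ZT4, Glul and Gjb6 were lower, and the median was -0.04. Fabp7, the brain fatty acid-binding protein of astrocytes and radial glia, measured 19.8, 32.9, 23.5 and 32.1 CPM in DRF ZT4 and 11.3, 13.9, 11.1 and 12.6 CPM in NRF ZT16. The DRF mice were spread widely, yet the lowest of them lay above the highest NRF mouse, and the ratio of the group means was 2.21 (difference 1.06, SE 0.15, adjusted p = 2.12e-05). Glul, glutamine synthetase, was the most abundant of the 78 and measured 1096, 1253, 1182 and 1257 CPM against 1612, 1635, 1589 and 1574 CPM (difference -0.42, SE 0.074, adjusted p = 0.000722). Its length was taken from the annotation, since its values could not be resolved into whole reads. Gjb6, the astrocytic gap junction protein connexin 30, measured 78.6 to 85.7 against 99.9 to 117 CPM (difference -0.39, SE 0.077, adjusted p = 0.00466). Other astrocyte genes did not pass, with Gfap at 0.09, Aldh1l1 at 0.02 and Slc1a3 at 0.02. Over the whole list of 15, 6 were above 0 and 9 below. The 7 astrocyte markers summed to 2570 to 2658 CPM in DRF ZT4 and 2523 to 2750 CPM in NRF ZT16, ranges that overlap.

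**Figure D2:**
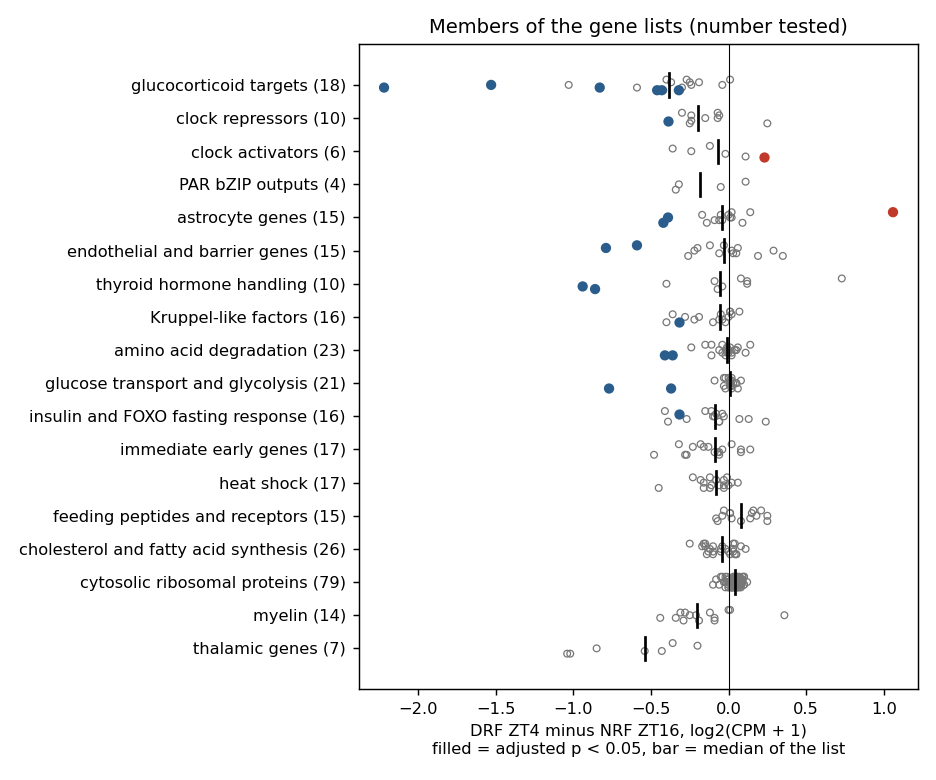
Difference between DRF ZT4 and NRF ZT16 (horizontal axis, log2(CPM + 1)) of each member of 18 gene lists, 1 circle per transcript, with the number tested in brackets, filled circles for an adjusted p under 0.05 and a bar at the median of the list. The glucocorticoid targets lie to the left with 6 filled circles and a median of -0.38, while immediate early genes, heat shock genes and feeding peptides have no filled circle.

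Among the other lower transcripts with large differences, Kirrel2, Fmo2 and Cdh19 belong to no list that was examined. Kirrel2, a cell adhesion molecule of the immunoglobulin family, measured 1.28, 1.17, 1.53 and 1.57 CPM against 3.99, 5.26, 4.1 and 3.27 CPM (difference -1.10, SE 0.17, adjusted p = 6.01e-05). Fmo2, a flavin-containing monooxygenase, measured 1.31, 1.30, 1.53 and 1.54 CPM against 3.28, 4.11, 3.96 and 3.43 CPM (difference -0.95, SE 0.14, adjusted p = 3.28e-05). In both, each NRF mouse was above each DRF mouse by more than 1 CPM, though groups without overlap were a condition for naming them. Cdh19, a cadherin of glial cells, measured 8.87 to 10.5 against 14 to 19.8 CPM (difference -0.79, SE 0.19, adjusted p = 0.0273) and lost its call without any mouse but NRF ZT16 replicate 1 (0.0502 to 0.141). The following were named because they passed the threshold. Sdc4, a heparan sulfate proteoglycan of the cell surface, measured 59.5 to 64.4 against 85.2 to 92.1 CPM (difference -0.49, adjusted p = 6.4e-06). The growth factor receptor Fgfr3 measured 136 to 150 against 168 to 178 CPM (difference -0.29, adjusted p = 0.000722). Gabrr2, a rho subunit of ionotropic GABA receptors, was the only member called among 41 GABA and glutamate receptor genes, at 1.34 to 1.56 against 2.56 to 3.29 CPM (difference -0.63, adjusted p = 0.000553). Kcnn2, a calcium-activated potassium channel, was the only member called among 63 potassium and HCN channel genes, at 21.7 to 23.4 against 27.8 to 32.2 CPM (difference -0.38, adjusted p = 0.00309). The membrane progestin receptors Paqr5 (-0.59, adjusted p = 0.00503) and Paqr8 (-0.41, adjusted p = 0.00929) were lower, the latter not without DRF ZT4 replicate 1 or NRF ZT16 replicate 2 (0.0559 and 0.0565). Fbxw23 (-0.68) measured 0.294 to 0.493 against 0.98 to 1.45 CPM, and Fbxw26 (-0.39) measured 0.0648 to 0.197 against 0.297 to 0.728 CPM. Fbxw26 lost its call without NRF ZT16 replicate 2 (adjusted p = 0.0916). Both are F-box genes at very low levels, of a family of near copies on chromosome 9, so that their separate values are uncertain.

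The 26 transcripts that were higher in DRF ZT4 had smaller differences. Mmp14, a membrane-bound matrix metalloproteinase, measured 31.3, 24.5, 25.8 and 28.1 CPM in DRF ZT4 and 15.9, 15.1, 15.1 and 19.5 CPM in NRF ZT16, with no overlap (difference 0.71, SE 0.10, adjusted p = 2.67e-05). Emp2, a membrane protein that binds integrins, measured 25.7 to 27.3 against 17.8 to 20.2 CPM (difference 0.47, SE 0.066, adjusted p = 1.93e-05). Tril, a Toll-like receptor accessory protein of glia, measured 94.4 to 102 against 77.9 to 85.2 CPM (difference 0.28, SE 0.053, adjusted p = 0.00346). Together with Fabp7, these were the 4 higher transcripts that kept their call whichever mouse was left out. Egfr, the epidermal growth factor receptor, measured 12.3 to 13.3 against 8.38 to 10.7 CPM (difference 0.40, adjusted p = 0.00929) and lost its call without DRF ZT4 replicate 1 or NRF ZT16 replicate 2 (0.0523 and 0.083). Col4a1, a collagen of basement membranes, was at 0.25 (adjusted p = 0.00929), and Frem2, an extracellular matrix protein, was at 0.41 (adjusted p = 0.0265). Plat, the tissue plasminogen activator, was at 0.31 (adjusted p = 0.0263), and the adhesion receptor Adgrg1 was at 0.32 (adjusted p = 0.00769). These calls ended without NRF ZT16 replicate 2 and, except for Adgrg1, without other mice, at adjusted p-values of at most 0.115 for Col4a1, 0.193 for Frem2, 0.13 for Plat and 0.0629 for Adgrg1 over all mice left out.

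The other transcripts among the 10 largest in this direction were less secure. Gpr179, an orphan receptor, measured 8.25 to 10.4 against 4.36 to 6.16 CPM (difference 0.64, adjusted p = 0.0272). Aqp9, a channel for water and glycerol, measured 1.73 to 2.98 against 1.01 to 1.49 CPM (difference 0.59, adjusted p = 0.0114). Nkx6-2, a homeobox factor of oligodendrocytes, measured 36.2 to 41.4 against 21.5 to 28.5 CPM (difference 0.53, adjusted p = 0.00978), while the summed oligodendrocyte markers lay the other way. Creb3l1, a transcription factor held in the endoplasmic reticulum membrane, measured 10 to 12.4 against 6.67 to 9.54 CPM (difference 0.47, adjusted p = 0.0462), and Exoc3l4 measured 3.98 to 4.96 against 2.72 to 3.53 CPM (difference 0.46, adjusted p = 0.00929). Each of these lost its call without NRF ZT16 replicate 2 and without at least 1 further mouse, with adjusted p-values of up to 0.162 for Gpr179, 0.0923 for Aqp9, 0.125 for Nkx6-2, 0.273 for Creb3l1 and 0.0684 for Exoc3l4.

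**Figure D3:**
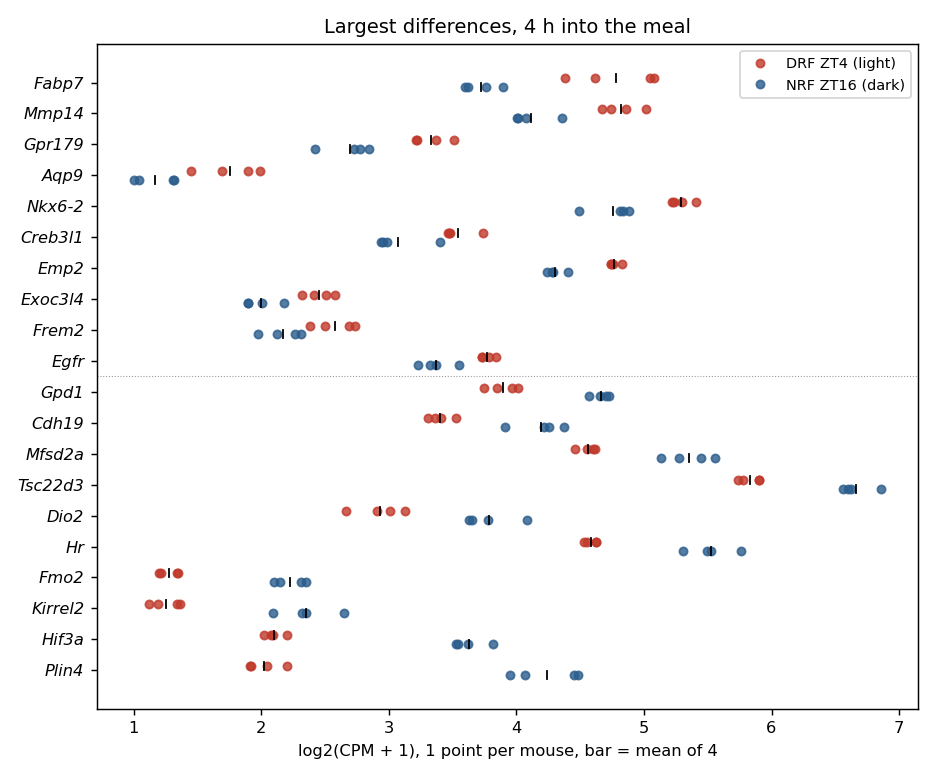
Level in each mouse (horizontal axis, log2(CPM + 1)) of the 10 transcripts with the largest difference in each direction among those with a mean of at least 1, 1 point per mouse and a bar at the mean of 4, with the higher transcripts above the dotted line. Only transcripts whose DRF ZT4 and NRF ZT16 mice do not overlap could enter, and the largest differences are those of Plin4 (-2.22) and Hif3a (-1.53).

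Of 20 clock genes tested in these groups, 12 h apart in clock time, 2 passed, against 0.485% of all transcripts. The mice of the groups did not overlap in 7 of the 20 (Arntl, Per2, Cry1, Nr1d1, Nr1d2, Ciart and Dbp), against 6.65% of all. Per2, a repressor of the clock, measured 35.4, 33.1, 34.4 and 35.0 CPM in DRF ZT4 and 48.5, 48.3, 44.0 and 41.1 CPM in NRF ZT16 (difference -0.39, SE 0.072, adjusted p = 0.00219). Arntl, which encodes the activator BMAL1, measured 37.7, 34.1, 38.0 and 35.8 CPM against 31.5, 29.4, 30 and 33.1 CPM (difference 0.23, SE 0.055, adjusted p = 0.0383). Both had groups without overlap, though the gap was narrow for Arntl. Arntl lost its call without DRF ZT4 replicate 1, 3 or 4 or NRF ZT16 replicate 1, 2 or 3 (0.065 to 0.188), while Per2 kept its call without any of the 8. Arntl also failed to pass in the limma fit of the 8 mice alone (adjusted p = 0.117) and with a replicate block there (0.0796). Of 10 clock repressors 1 passed and 9 were below 0, with a median of -0.20. Of 6 clock activators 1 passed and the median was -0.07, and none of 4 PAR bZIP output factors passed.

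The clock genes that did not pass differed in how near they came. Dbp, an output factor driven by ARNTL and CLOCK, measured 46.6 to 50.8 against 54.9 to 69.2 CPM without overlap, at a difference of -0.34 and an adjusted p of 0.0711. It passed in other settings, such as the fit of the 8 mice alone (0.0391) and with the library trends removed (0.000578). Nr1d1, which encodes REV-ERB-alpha, measured 107 to 118 against 86.6 to 104 CPM, a difference of 0.25 with an adjusted p of 0.197, and its reads overlap those of Thra on the other strand. Cry1 (-0.24, adjusted p = 0.223), Nr1d2 (-0.24, adjusted p = 0.523) and Ciart (-0.30, adjusted p = 0.214) also had groups without overlap. With each library weighted by its own spread, Cry1 (0.0105), Nr1d1 (0.0136) and Nr1d2 (0.00982) passed as well, as did Nr1d1 with the library trends removed (0.0482), Nr1d2 without replicates 3 and 4 of DRF ZT16 (0.0476) and Hlf with a replicate block in the 8 mice alone (0.00289). Per1, at 46.7 to 61.7 against 59.8 to 71.2 CPM, was at -0.25 (adjusted p = 0.444), and Per3 was at -0.15 (adjusted p = 0.359). The differences of Clock (-0.02), Npas2 (-0.24), Rora (-0.36) and Rorb (-0.12) had adjusted p-values of at least 0.725. Cry2 (-0.07), Bhlhe40 (-0.07), Bhlhe41 (-0.06), Tef (-0.05), Hlf (-0.32) and Nfil3 (0.11) had adjusted p-values of at least 0.408. A p-value above the threshold does not show that levels were the same.

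Across 48 lists, 12 held at least 1 called transcript and 36 held none, and 57 of the 78 called transcripts were in no list. Since 0.485% of all transcripts passed, a short list without a call is near the background, and its count says little. None of 17 immediate early genes, which report recent neuronal activity, passed. Fos measured 7.36 to 11.9 against 9.41 to 20.7 CPM (difference -0.48, adjusted p = 0.772), and the smallest adjusted p-value of the list was 0.469. None of 15 feeding peptides and receptors passed, with Agrp at 0.25 (2.61 to 5.65 against 1.19 to 4.87 CPM), Npy at 0.14 and Pomc at 0.25, and the smallest adjusted p-value was 0.724. Of 14 SCN peptides and identity genes none passed, and Vip was at 0.00 (12.2 to 16.5 against 13.0 to 15.5 CPM). Avp, the vasopressin gene, measured 200 to 286 against 133 to 182 CPM without overlap (difference 0.56, adjusted p = 0.646), and the anterior hypothalamic markers were higher in the same mice. The same was found for 17 heat shock genes (median -0.08), 18 chaperone and stress genes of the endoplasmic reticulum (-0.02) and 26 genes of cholesterol and fatty acid synthesis (-0.05), none of which passed. The 79 cytosolic ribosomal protein genes had a median of 0.04 with 66 above 0 and no call. Among 16 genes of the insulin and FOXO fasting response only Klf15 passed, and Pdk4, a kinase induced by fasting in many tissues, was at -0.04 (adjusted p = 0.951). Of 20 genes of ketone use and fatty acid oxidation none passed, and Slc16a1, the monocarboxylate transporter that carries ketone bodies, came nearest at 0.24 (42.3 to 47.4 against 35.1 to 38.5 CPM, adjusted p = 0.0556).

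Promoters of the called transcripts were searched for motifs of clock factors, the glucocorticoid receptor and the cyclic AMP response. The 250 bases before the transcription start were taken from RefSeq (GRCm38.p6) for 42 of the 52 lower and 19 of the 26 higher transcripts, and each motif was sought on both strands. The E-box CACGTG, to which CLOCK and ARNTL bind, was present in 6 of 42 lower promoters (Acot11, Fkbp5, Itprid2, Klf15, Net1 and Slc25a33) and in 1 of 19 higher promoters (Gramd4), against 9.35% of 12732 promoters of tested transcripts. The ROR element TAGGTCA, shared by REV-ERB and ROR receptors, was found for Glul and Fabp7 (2.03% of all). The palindromic glucocorticoid receptor motif was found for Fam107a (0.369%), the D-box TTANGTAA for Gabrr2 and Gkn3 (1.74%), and the cyclic AMP element TGACGTCA for Abcg2 and Dio2 (2.75%). A match describes these letters only, and its absence from this short window says nothing of a factor. The promoter windows of 2 glucocorticoid targets with an E-box, of Fabp7 as the largest higher transcript and of Fam107a are shown 5′ to 3′ on the strand of the gene, with the motif in capitals. Klf15 (chr6:90462326-90462575, plus strand) has E-boxes beginning 228 and 172 bases before the start used here, which lies inside the span that RefSeq gives for the gene (chr6:90461043-90491803). Fkbp5 (chr17:28486150-28486399, minus strand) has 1 at 169 bases. Fabp7 (chr10:57784673-57784922, plus strand) has the ROR element in reverse orientation at 171 bases. Fam107a (chr14:8309780-8310029, minus strand), an actin-associated protein induced by stress, has the glucocorticoid receptor motif at 118 bases before 1 of the 3 starts that RefSeq gives.
Klf15: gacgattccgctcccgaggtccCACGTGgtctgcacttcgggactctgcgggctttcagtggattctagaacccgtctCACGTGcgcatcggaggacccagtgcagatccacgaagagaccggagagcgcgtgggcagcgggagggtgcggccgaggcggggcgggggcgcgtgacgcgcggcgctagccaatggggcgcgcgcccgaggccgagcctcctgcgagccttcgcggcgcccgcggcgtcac
Fkbp5: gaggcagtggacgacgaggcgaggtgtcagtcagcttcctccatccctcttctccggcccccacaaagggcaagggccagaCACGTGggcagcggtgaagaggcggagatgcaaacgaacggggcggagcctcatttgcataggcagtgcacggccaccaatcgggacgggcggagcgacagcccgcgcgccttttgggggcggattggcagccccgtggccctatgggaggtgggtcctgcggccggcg
Fabp7: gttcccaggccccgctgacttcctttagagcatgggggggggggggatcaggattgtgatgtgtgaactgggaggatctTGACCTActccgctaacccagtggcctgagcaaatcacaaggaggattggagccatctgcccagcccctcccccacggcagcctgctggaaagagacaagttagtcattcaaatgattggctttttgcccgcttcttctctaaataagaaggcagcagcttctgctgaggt
Fam107a: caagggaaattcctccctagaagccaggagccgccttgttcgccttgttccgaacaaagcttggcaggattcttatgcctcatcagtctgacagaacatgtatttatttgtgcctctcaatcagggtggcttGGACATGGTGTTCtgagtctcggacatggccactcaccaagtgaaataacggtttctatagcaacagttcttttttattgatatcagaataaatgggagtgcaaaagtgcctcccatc

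Fam107a itself measured 211, 244, 238 and 309 CPM in DRF ZT4 against 359, 378, 370 and 356 CPM in NRF ZT16 (difference -0.56, SE 0.14, adjusted p = 0.0426). The groups did not overlap, but the call ended without any mouse but DRF ZT4 replicate 4 (0.0799 to 0.263).

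The same 2 clock times can be compared in mice that were 4 h into their fast, NRF mice at ZT4 against DRF mice at ZT16, which shares no mouse with the comparison above but has the regimens exchanged. In 2 of the 4 DRF ZT16 libraries, replicates 3 and 4, the deviation from the mean of all mice climbed with GC content by 0.307 and 0.4425 on the log2 scale per 10 percentage points, against -0.0308 and -0.0266 in replicates 1 and 2, so values are given with and without them. Of the 52 transcripts lower in DRF ZT4, 48 were also lower at ZT4 in the fasted mice and 41 passed in that direction, where 9.42% of all transcripts did. Without replicates 3 and 4 of DRF ZT16 the counts were 48 and 37 (5.59% of all), and in a fit of these 8 fasted mice alone 18 passed (0.373% of all). Of the 26 higher transcripts, 21 had the same sign and 13 passed (11.4% of all). Without the same libraries 25 had the same sign and 11 passed (3.54%), and 3 passed in the fit of the 8 mice alone (0.0808%), namely Fabp7, Mmp14 and Emp2. None of the 78 passed in the opposite direction in any of these fits.

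Within the fasted mice, and without replicates 3 and 4 of DRF ZT16, Plin4 differed by -3.10 between ZT4 and ZT16 (adjusted p = 1.64e-07), Tsc22d3 by -1.03 (1.11e-08), Hif3a by -1.24 (0.000651) and Klf15 by -0.62 (1.64e-07). Mfsd2a differed by -1.15 (8.42e-08), Glul by -0.62 (8.75e-06), Per2 by -0.57 (4.45e-05) and Fabp7 by 1.86 (1.11e-08). Of the 18 glucocorticoid targets, a list chosen with earlier results of these data known, 12 passed there, with a median of -0.60. Arntl was at 0.01 (adjusted p = 0.938), and Gpr179, Frem2 and Exoc3l4 were at 0.01, 0.02 and 0.06.

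The light-dark difference of the fed mice was tested against that of the fasted mice as an interaction. This interaction equals the sum of the DRF minus NRF differences at ZT4 and at ZT16, so it cannot separate food state from regimen. It passed for 15 of the 78 transcripts with all libraries, where 11% of all transcripts passed, and for 3 of 78 without replicates 3 and 4 of DRF ZT16, where 1.95% passed. These 3 were Gdf10, a growth factor of the transforming growth factor-beta family, Ramp2, a subunit of adrenomedullin receptors, and Cables1, a cyclin-dependent kinase adaptor. Gdf10 was at -0.56 in the fed and 0.23 in the fasted mice (difference of the differences -0.79, adjusted p = 0.0316), and Ramp2 at -0.35 and 0.06 (-0.41, adjusted p = 0.0406). Cables1 was at -0.25 in the fed and -0.63 in the fasted mice (0.39, adjusted p = 0.0143). They were picked out after their values were seen. Their calls in the fed mice ended without 7, 2 and 4 of the 8 mice in turn, with adjusted p-values of up to 0.213 for Gdf10, 0.172 for Ramp2 and 0.0662 for Cables1.

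**Figure D4:**
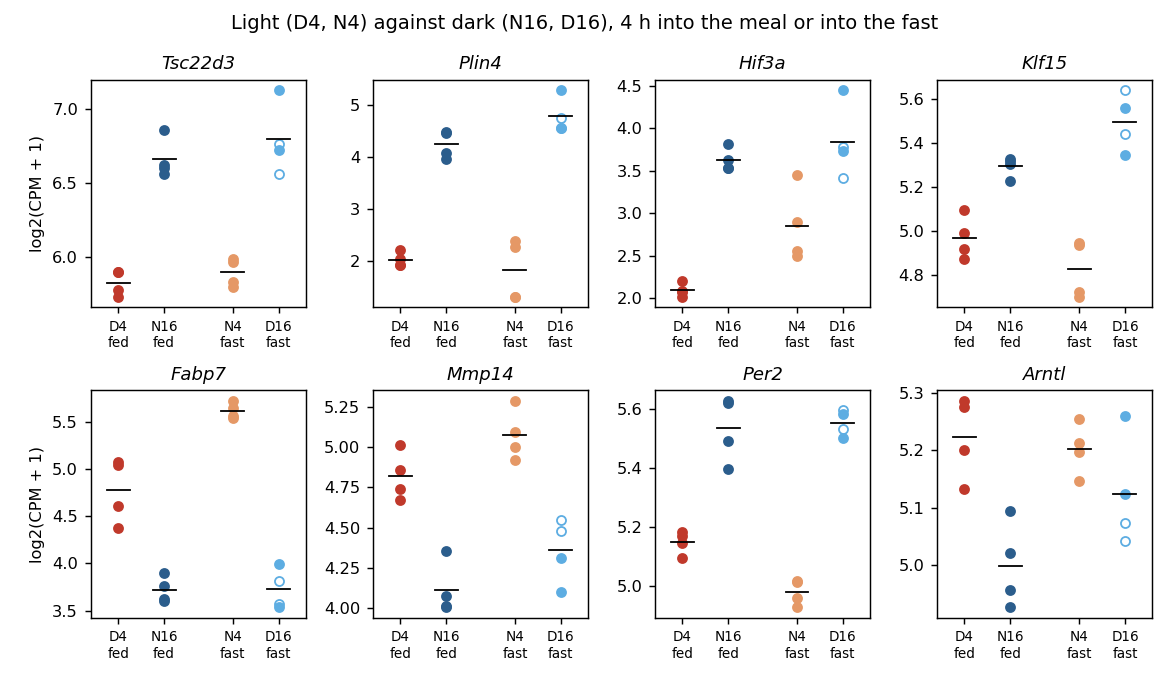
Level in each mouse (vertical axis, log2(CPM + 1)) at ZT4 and ZT16 for 8 transcripts, with the fed groups DRF ZT4 (D4) and NRF ZT16 (N16) on the left and the fasted groups NRF ZT4 (N4) and DRF ZT16 (D16) on the right of each panel, a bar at the mean of 4 mice and open circles for DRF ZT16 replicates 3 and 4. Tsc22d3, Plin4 and Klf15 are lower and Fabp7 and Mmp14 higher at ZT4 than at ZT16 in fed and in fasted mice alike, and Fabp7 reaches its highest level in the fasted NRF ZT4 mice.

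A further 4 h into the meal, DRF mice at ZT8 were compared with NRF mice at ZT20, again with no mouse in common but with the same estimate of the spread. Of the 52 lower transcripts 37 kept their sign and 7 passed in the same direction (2.29% of all transcripts), namely Mfsd2a, Fbxw23, Fam107a, Glul, Paqr8, Gjb6 and Cables1. The median difference of the 52 was -0.13, against -0.44 at 4 h, the values by which they were chosen. Of the 26 higher transcripts 15 kept their sign and 3 passed (1.61%), Slc20a2, Lgi4 and Usp35, while Arntl (-0.38, adjusted p = 1.3e-05) and Foxs1 (-0.48, adjusted p = 0.000757) passed in the opposite direction. The glucocorticoid targets had a median of 0.07 at 8 h. Tsc22d3 was at -0.07 (adjusted p = 0.772), Fkbp5 at -0.10, Klf15 at 0.05 and Hif3a at 0.53 (adjusted p = 0.13), and Plin4 was at -0.87 (adjusted p = 0.0837). Among clock outputs, Dbp was at 0.94 (adjusted p = 1.14e-09) and Nfil3 at -0.51 (adjusted p = 1.35e-05), while Tef was at 0.02 and Hlf at -0.13, and the repressor gene Nr1d1 was at 0.70 (adjusted p = 4.34e-08). The change between 4 h and 8 h was not tested.

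The whole time course shows where these groups lie in each regimen. By its group means Tsc22d3 was lowest in DRF at ZT4, at 52.2 to 58.8 CPM, and highest at ZT16, at 93.7 to 139 CPM. In NRF it was highest at ZT12, at 99.5 to 116 CPM, and ZT16 overlapped that range at 93.6 to 115 CPM. Hif3a in DRF was at 3.06 to 3.60 CPM at ZT4 and at 10.5 to 14.5 CPM at ZT0, and its other DRF groups ranged from 6.56 to 20.9 CPM, so ZT4 stood alone. Hr had its lowest DRF group at ZT4 too, at 22.1 to 23.7 CPM, next to 42.2 to 56.0 CPM at ZT0 and 33.6 to 40.9 CPM at ZT8. Hif3a and Hr also differed between the regimens at ZT4, by -0.76 (adjusted p = 0.0221) and -0.76 (adjusted p = 0.00216) for DRF minus NRF, a contrast that uses the same DRF mice and is not independent (3.91% of all transcripts passed). On that contrast Tsc22d3 was at -0.07, Plin4 at 0.20 and Mmp14 at -0.25, none of which passed. Fabp7 had its highest group mean at ZT4 in both regimens and was lower in DRF than in NRF there, at 19.8 to 32.9 against 45.8 to 52.0 CPM (difference -0.84, adjusted p = 0.0011). At ZT16 the regimens overlapped for Fabp7, at 10.6 to 15.0 CPM in DRF and 11.1 to 13.9 CPM in NRF. Per2 was lowest at ZT4 in both regimens by its group mean, though in DRF its range at ZT4 lay within that at ZT0, and it was highest at ZT12 in both. Arntl in DRF was at 34.1 to 38.0 CPM at ZT4 and at 26.7 to 30.5 CPM at ZT8, while in NRF it was at 29.4 to 33.1 CPM at ZT16 and 35.8 to 38.6 CPM at ZT20.

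**Figure D5:**
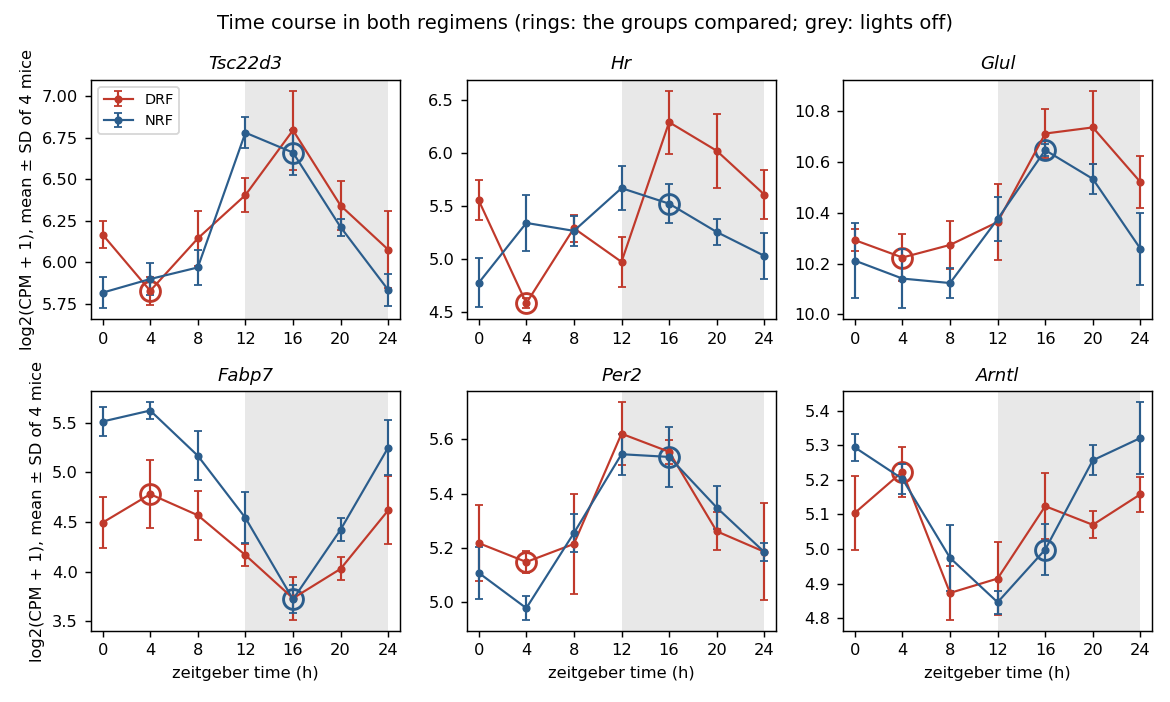
Level (vertical axis, log2(CPM + 1), mean and SD of 4 mice) at 7 time points (horizontal axis, zeitgeber time in h) in DRF and NRF for 6 transcripts, with the dark period in grey and rings around DRF ZT4 and NRF ZT16. The rings sit at the low point of DRF and near the high point of NRF for Tsc22d3 and Glul, and Hr in DRF drops to 4.58 at ZT4.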

How the data were processed

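Poly(A) RNA of the anterior hypothalamus of 56 mice was sequenced, and 4 mice in each of 14 groups of regimen and time point were grouped by their labels. Upstream, the authors used SOAPnuke for cleaning, HISAT2 (GRCm38.p6) and Bowtie2 (coding gene set) for alignment, RSEM for quantification and TMM in edgeR for normalization, and they named the deposited values TPM. The read length is given differently in the labels and the methods, and strand was not given in the sources used here. The deposited values are a score in place of a true TPM. They are log2(CPM + 1) per unit of gene length, scaled so that a mouse sums to 999333 to 999720, a relation worked out from the steps between values of 1026 genes with few reads. The log2(CPM + 1) values of 17377 genes were recovered by reversing this. Whole reads, within 0.02 of a read, resulted in 14949 of them and hundredths of a read in 742, and 187 of the 17564 genes had no usable length. Values for a further 1038 genes rest on the annotated length (Dbp, Nr1d1, Glul and Phkg1 among those named), and 648 were whole in part of the mice (Ly6c1, Acot11 and Slc20a2 among them). Normalized library sizes were 29591268 to 34493353 reads, so that 1 read was about equal in all mice. Raw counts were not used here and no count model was fitted.

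The filter kept 16090 transcripts that reached a deposited value of 1 in 45 or more mice (80%). A linear model with 14 group means was fitted to log2(CPM + 1) of all 56 mice with limma 3.58.1 (eBayes with trend, R 4.3.3), and p-values were two-sided and adjusted by the Benjamini-Hochberg method over all transcripts at a threshold of 0.05. All groups share one estimate of the spread, and the p-values measure the spread between mice. The fit was tested on simulated data. Named were the 10 transcripts with the largest difference in each direction (mean of at least 1, groups without overlap), the clock genes, of which 1 is not reported here, and the leading members of each list. Further called transcripts were named after their values were seen, and the transcripts that lead the further comparisons are not described. The members and the gene lists were chosen with earlier results of these data known. Replicate numbers are shared by the groups but name different mice, and the main fit used no pairing. Alternatives changed the mice in the fit, the block, filter, pseudocount, scaling, library trends and weights, and left out each mouse.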

Additional observations from a re-analysis of the deposited data

Results flagged for a closer look

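For 9 of the 51 transcripts named by rule, the light-dark difference of the fed mice (DRF ZT4 minus NRF ZT16) differed from that of the fasted mice (NRF ZT4 minus DRF ZT16) by a test of the interaction over all libraries, which 11% of all transcripts passed. Gdf10, Cables1, Col4a1, Adgrg1, Net1, Usp35 and Gramd4, named above after passing the main comparison, also passed it. This test cannot separate food state from regimen. The difference of the differences was -0.83 for Fabp7 (1.06 in fed and 1.89 in fasted mice), 0.70 for Gpr179, 0.49 for Exoc3l4, 0.40 for Frem2 and 0.35 for Klf15 (-0.32 and -0.67). Among clock genes it was -1.14 for Rora, 0.34 for Per3, -0.41 for Dbp and 0.26 for Tef. Without DRF ZT16 replicates 3 and 4, whose trend with GC content stands apart, it was -0.84 for Rora (adjusted p = 0.209) and passed for Per3 at 0.31 (adjusted p = 0.0492), Dbp at -0.65 (0.00682) and Tef at 0.19 (0.0473), while 1.95% of all transcripts passed. It was then -0.80 for Fabp7, 0.62 for Gpr179, 0.40 for Exoc3l4, 0.39 for Frem2 and 0.30 for Klf15, with adjusted p-values of 0.0679 to 0.144.

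The 51 transcripts named by rule were looked at in DRF ZT4 and in NRF ZT16. In 6 of them a single mouse stood away from the other 3 of its group. This was measured as its gap to the nearest mouse divided by the range of the group. Chance gives such a mouse in about 1 in 20 groups, so a number near this would come by chance over all the groups looked at. The ratio was 0.956 for Nfkbia in NRF ZT16, 0.918 for Nr1d2 in NRF ZT16, 0.899 for Clock in NRF ZT16 and 0.83 for Nkx6-2 in NRF ZT16. It was 0.882 for Fkbp5 in DRF ZT4, where the range itself was small. For Creb3l1 it was 0.949 in DRF ZT4 and 0.893 in NRF ZT16, with replicate 1 the high mouse in both (12.4 and 9.54 CPM).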

How the results depend on the processing

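The number of transcripts that differed between DRF ZT4 and NRF ZT16 was 78, and it stayed between 68 and 115 with other filters, pseudocounts and scalings, without the DRF ZT16 group, or on the deposited values as they stand. It was 354 with library weights, 128 with the library trends removed and 34 to 68 without a mouse (34 without NRF ZT16 replicate 2). The deviations of same-numbered mice correlated at 0.2412, 0.05801, 0.08151 and -0.03806, against -0.1933 to 0.1678 between mice of different numbers. Whether same-numbered mice share an effect was not tested. With the replicate block the count was 238 in the 8 mice alone, against 99 there without it, and 70 in all mice. Of the 78, 28 passed in every alternative in which they were tested (20, or 18 for Fbxw23) and none changed sign. Of 51 named transcripts, Clock alone changed sign, from -0.02 to 0.03 with the trends removed, and it was -0.05 to 0.01 without single mice, never past the threshold.

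The counts of the other comparisons moved too, and the cause was not tested. Without single mice the counts were 1387 to 4691 for NRF ZT4 against DRF ZT16, 594 to 3558 for the interaction, 348 to 561 for DRF ZT8 against NRF ZT20, 113 to 752 for the regimens at ZT4 and 322 to 4904 at ZT16. Without DRF ZT16 replicates 3 and 4, chosen after the data were seen, they were 1470 (fasted), 313 (interaction) and 33 (regimens at ZT16). Fitted on their own groups alone they were 73, 67 and, by limma, 0 (2207 at an unadjusted p under 0.05). With the trends removed they were 1225 for DRF ZT8 against NRF ZT20 and 2074 for the regimens at ZT16. With 4 mice a group and a shared spread, small differences of variable transcripts cannot be seen, and p-values for comparisons with DRF ZT16 rest on a spread that its own mice exceed.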
